A study of Mus musculus with 120 samples.

Results

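Dbp, Tef, Hlf, Nfil3, Ciart, Bhlhe40 and Bhlhe41 encode 7 transcription regulators that carry the output of the circadian clock or feed back on it, and they were followed through every library of a mouse brain RNA-seq series. They were picked by gene symbol and make up 7 of the 49466 genes kept. In the clock, CLOCK and BMAL1 (the product of Arntl) bind E-boxes and switch on genes that include the repressors of the Per and Cry families, so that E-box genes rise and fall over the day. DBP, TEF and HLF are activators of the PAR bZIP family (proline and acidic amino acid-rich basic leucine zipper proteins) that bind the D-box, and NFIL3 (also called E4BP4) represses from the same site. CIART (also called CHRONO) and the basic helix-loop-helix proteins BHLHE40 and BHLHE41 (DEC1 and DEC2) repress transcription driven by CLOCK and BMAL1. In rodent brain, Dbp is known as a strongly rhythmic transcript in and outside the suprachiasmatic nucleus.

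Polyadenylated RNA came from cortex, thalamus or hypothalamus of C57BL/6J mice, in 30 groups of 4 biological replicates. The mice were heterozygous for the Sleepy allele of the kinase gene Sik3 (genotype Sik3E13Δ/+, SLP below) or wild type (WT). Every mouse, controls included, received an adeno-associated virus behind the eye 3 weeks before dissection, which carried HDAC4CA (derived from HDAC4, a histone deacetylase of class IIa), CREB (the cAMP-responsive transcription factor) or, in controls, only mCherry or eGFP. Mice were dissected shortly after lights off (ZT12.5) or shortly after lights on (ZT0.5), where ZT is zeitgeber time, the hours since lights on. The SLP groups were HDAC4CA and eGFP at both times and CREB at ZT12.5. The WT groups were HDAC4CA, CREB and mCherry at ZT12.5 and eGFP at both times. The labels and methods used here do not give the mice's age, the promoter that drove the virus, the cells it reached, or whether regions came from the same mice. The 36 libraries of WT mice with HDAC4CA, CREB or mCherry are in RPKM and the other 84 in FPKM, both of which divide reads by gene length and library size. Levels were therefore compared only within 1 of the 2 sets.

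Libraries held 13.52 to 28.16 M reads assigned to genes (median 18.7 M). All 7 genes passed the filter on low values in all 39 comparisons made. The thinnest of them were Ciart, with 25 to 234 reads a library, and Nfil3, with 33 to 182, so their values carry the most counting error. Summed cortex markers stood at 127 to 205 FPKM in cortex, 18.2 to 44.7 in thalamus and 1.83 to 6.31 in hypothalamus, and the libraries' regions matched their labels. In the RPKM set, all libraries of thalamus and hypothalamus and replicate 4 of each cortex group (27 libraries) had low ribosomal protein levels, a mean log2 value under 2.5, so regions were compared only in FPKM. Hdac4 read higher with HDAC4CA in each region (in WT thalamus 7.36 ± 0.264 RPKM, against 2.65 ± 0.13 with mCherry, SD, n = 4 each). In WT cortex Hdac4 averaged 6.01 ± 1.01 RPKM with HDAC4CA and 3.43 ± 0.275 with mCherry, and in WT hypothalamus 5.37 ± 0.419 and 3.17 ± 0.173.

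Promoter windows of 250 bases before the RefSeq start are shown first, since Dbp, Ciart, Tef and Bhlhe41 moved together with time of day below. Sequences and starts are RefSeq's for GRCm38.p6. The GENCODE M21 annotation, used here for gene lengths, places some starts elsewhere. There Tef begins at chr15:81802421, so both Tef windows lie inside that gene. Dbp (chr7:45705088), Bhlhe41 (chr6:145865558), Ciart and Nfil3 begin there within their windows, which so reach into those genes. Windows were found for 6 of the 7 genes (7 windows, because Tef has a pair of starts). Searched on both strands were the E-box CACGTG, the D-box (TTATGTAA or TTACGTAA), the cAMP response element TGACGTCA and the MEF2 site. Capitals mark the match, 5′ to 3′ on the gene's own strand. The Ciart window (chr3:95882229-95882478, minus strand) held 3 E-boxes, 116, 58 and 44 bases before the start:
Ciart: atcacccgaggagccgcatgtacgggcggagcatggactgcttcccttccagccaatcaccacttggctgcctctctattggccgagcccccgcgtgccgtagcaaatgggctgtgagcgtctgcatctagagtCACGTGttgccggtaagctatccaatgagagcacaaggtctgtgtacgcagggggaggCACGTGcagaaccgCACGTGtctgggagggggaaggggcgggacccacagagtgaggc
Both Tef windows (chr15:81802423-81802672 and chr15:81811164-81811413, plus strand) held 1 E-box each, 127 and 138 bases before their starts:
Tef, first start: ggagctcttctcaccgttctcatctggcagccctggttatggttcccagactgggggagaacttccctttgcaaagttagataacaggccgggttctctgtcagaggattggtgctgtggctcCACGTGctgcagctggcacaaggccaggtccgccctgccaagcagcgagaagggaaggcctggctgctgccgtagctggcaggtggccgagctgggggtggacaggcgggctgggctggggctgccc
Tef, second start: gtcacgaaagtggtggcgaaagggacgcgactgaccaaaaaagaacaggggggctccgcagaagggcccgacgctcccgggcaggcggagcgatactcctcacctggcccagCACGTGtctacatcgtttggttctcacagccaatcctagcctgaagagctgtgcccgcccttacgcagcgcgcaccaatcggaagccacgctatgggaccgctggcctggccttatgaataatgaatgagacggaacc
The Bhlhe41 window (chr6:145865421-145865670, minus strand) had 1 E-box, 153 bases before the start:
Bhlhe41: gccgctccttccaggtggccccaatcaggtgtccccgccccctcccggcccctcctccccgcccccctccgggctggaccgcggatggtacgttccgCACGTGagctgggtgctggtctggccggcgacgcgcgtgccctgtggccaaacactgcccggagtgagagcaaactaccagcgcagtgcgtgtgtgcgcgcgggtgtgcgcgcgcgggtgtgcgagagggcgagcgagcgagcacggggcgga
The Dbp window (chr7:45704997-45705246, plus strand) held none of these letters, and is shown because Dbp was the gene most often higher at ZT12.5:
Dbp: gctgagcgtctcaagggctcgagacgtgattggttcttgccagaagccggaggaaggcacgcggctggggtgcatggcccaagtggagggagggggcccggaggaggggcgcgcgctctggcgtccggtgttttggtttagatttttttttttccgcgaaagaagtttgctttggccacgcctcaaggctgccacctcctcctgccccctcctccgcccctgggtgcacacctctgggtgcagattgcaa
The Hlf window (chr11:90390918-90391167, minus strand) held 1 cAMP response element, the site CREB binds, 9 bases before the start, and is shown for the comparisons with CREB:
Hlf: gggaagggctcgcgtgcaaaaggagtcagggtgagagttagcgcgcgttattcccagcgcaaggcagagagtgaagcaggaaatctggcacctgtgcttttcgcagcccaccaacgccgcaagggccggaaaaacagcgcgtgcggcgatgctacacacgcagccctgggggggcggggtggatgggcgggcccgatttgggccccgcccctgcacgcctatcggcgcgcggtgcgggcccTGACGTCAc
No D-box or MEF2 site was found in any of the 7 windows, nor any of the 4 motifs in that of Nfil3. Among all 32851 windows of this length, 6.02% held an E-box, 0.0609% held 3 or more, 1.55% held a cAMP response element, 0.931% a D-box and 0.508% a MEF2 site. A match is a description of these letters, and says nothing of binding.

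Levels in the FPKM libraries ordered the 7 genes and parted the regions. Hlf was the gene with the highest level in thalamus, with 20.1 to 33.6 FPKM over its 28 libraries and a median of 28.3, against 11.7 to 22.6 in cortex and 8.35 to 12.9 in hypothalamus. Thalamic Hlf overlapped the cortical range slightly and lay wholly above the hypothalamic one. Tef had 14.1 to 20.8 FPKM in cortex, 9.99 to 18.0 in thalamus and 13.4 to 20.9 in hypothalamus. Dbp spanned 2.88 to 14.2 FPKM in cortex, 5.05 to 20.3 in thalamus and 4.29 to 14.3 in hypothalamus. Each of these ranges holds libraries of both times. Bhlhe41 ran higher outside cortex, at 4.35 to 8.28 FPKM in thalamus and 5.11 to 7.08 in hypothalamus, against 2.53 to 5.1 in cortex. Bhlhe40 had 7.63 to 14.1 FPKM in cortex and 6.89 to 16.9 in thalamus, and was mostly lower in hypothalamus, at 4.68 to 8.31. Nfil3 and Ciart were the least abundant, with medians of 1.49 and 2.33 FPKM in cortex, 2.06 and 3.12 in thalamus, and 2.15 and 1.83 in hypothalamus. When the 21 FPKM groups were ranked by mean, neighbours in the order seldom had separate ranges. For Dbp, Ciart and Bhlhe41, 2 of 20 neighbouring pairs were apart, for Tef 1 of 20, and for Hlf, Nfil3 and Bhlhe40 none.

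The time comparison asks which of the genes differed between dusk and dawn in the same region, genotype and construct. Dbp, Ciart, Tef and Bhlhe41 were called only as higher at ZT12.5, Nfil3 only as lower, and Hlf and Bhlhe40 were called in none of the 9 comparisons (limma on log2 values, Benjamini-Hochberg adjusted p under 0.05 over all genes tested). Dbp was called in 8 of the 9, Ciart in 7, Nfil3 in 6, Bhlhe41 in 5 and Tef in 3. In WT eGFP mice, 4 of the 7 genes were called in cortex, where 1.43% of all genes tested were called, 5 in thalamus (23.9% of all genes) and 1 in hypothalamus (0.226%). By direction, 3 were higher at ZT12.5 and 1 lower in WT cortex (0.61% and 0.825% of all genes), 4 and 1 in thalamus (13.9% and 10%) and 1 and 0 in hypothalamus (0.174% and 0.0522%). In SLP eGFP mice, 2 were called in cortex (5.21%), 5 in thalamus (21.4%) and 3 in hypothalamus (0.308%). Of these, 2 were higher and 0 lower in cortex (2.99% and 2.22%), 4 and 1 in thalamus (9.4% and 12.0%) and 2 and 1 in hypothalamus (0.25% and 0.0581%). SLP mice with HDAC4CA had 4 called in cortex (4.55%), 5 in thalamus (26.7%) and 0 in hypothalamus (0.29%). There, 3 were higher and 1 lower in cortex (1.93% and 2.63%) and 4 and 1 in thalamus (14.7% and 12.1%), and in hypothalamus 0.0754% of all genes were higher and 0.215% lower. In that last comparison limma gave 2212 genes with an unadjusted p under 0.05, and voom on recovered reads called 2 of the 7 and 247 genes in all. The median log2 difference of the 7 genes was 0.15, 0.40 and 0.15 in WT eGFP cortex, thalamus and hypothalamus, against -0.02, 0.01 and 0.02 over all genes tested. Each library is 1 of 4 biological replicates, so the p-values measure the spread between these samples.

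**Figure D1:**
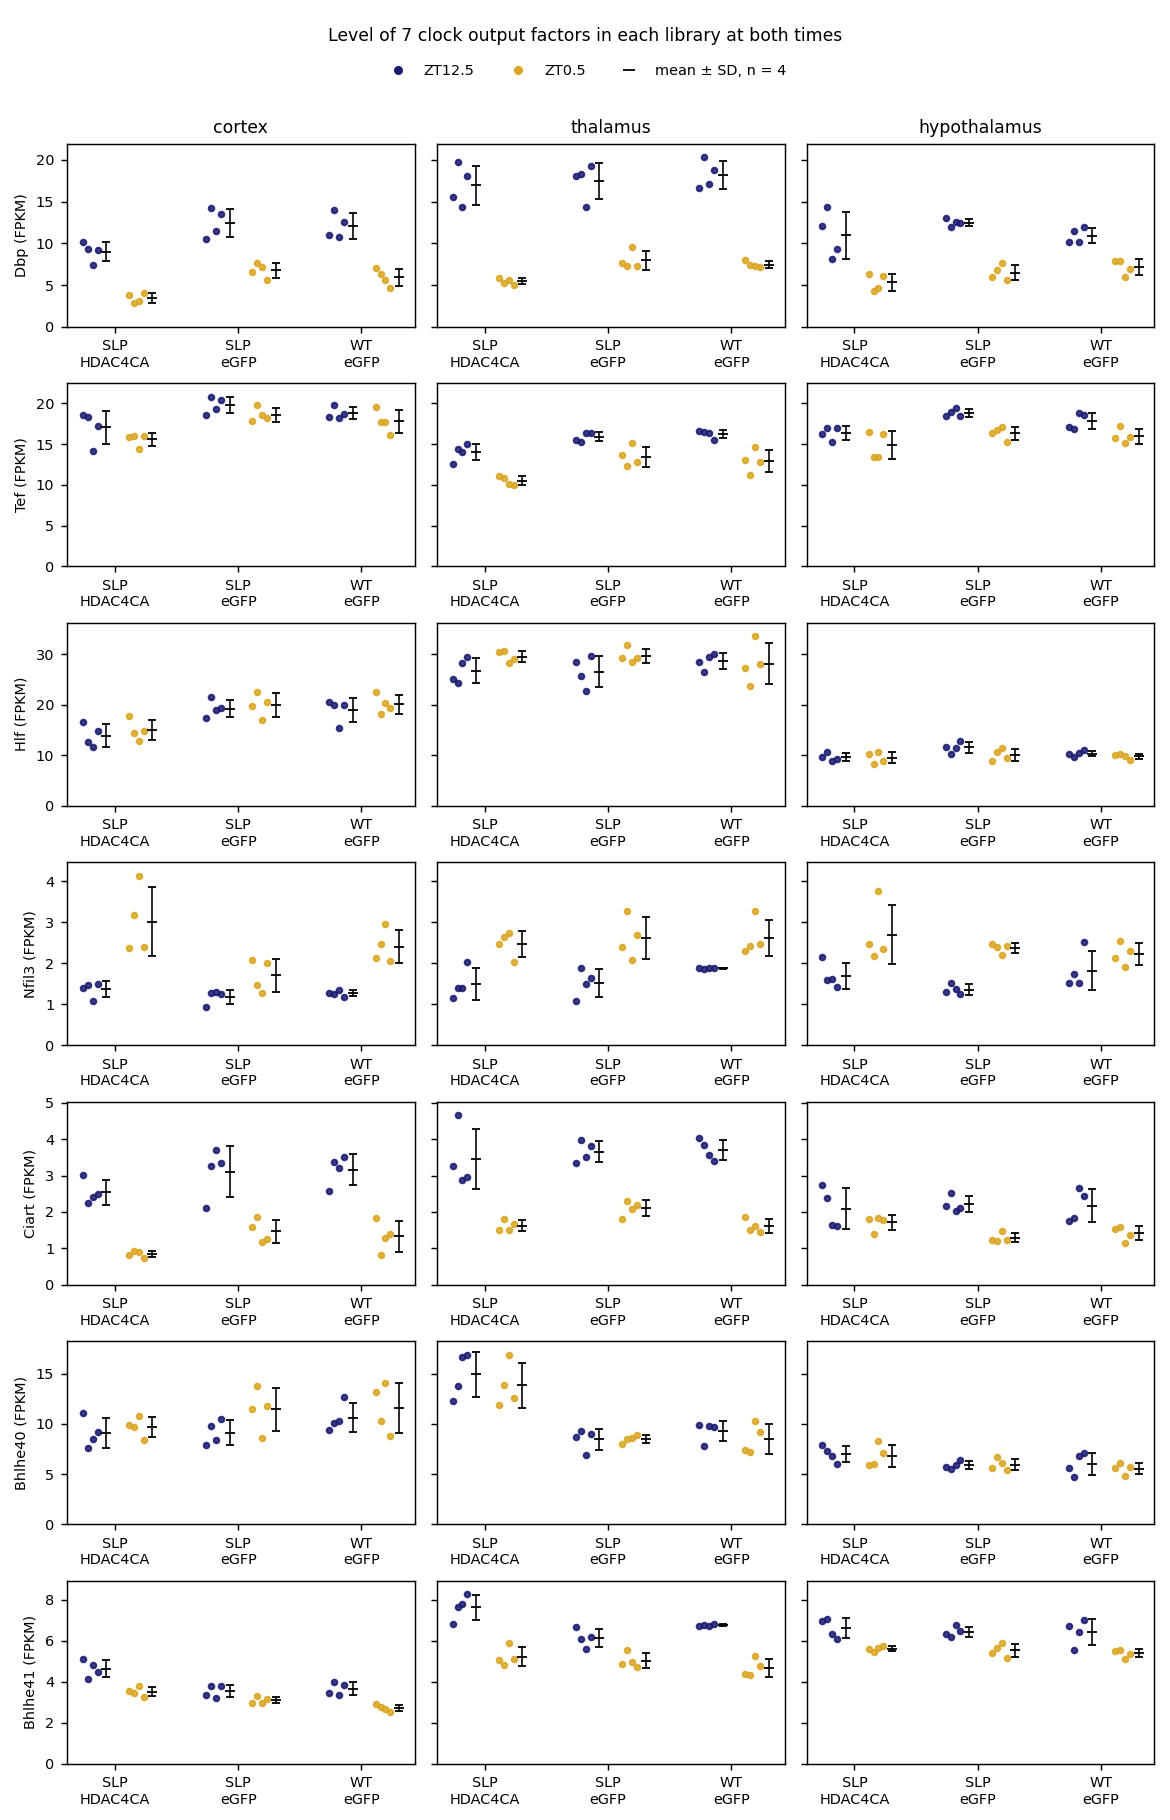
Level of each of the 7 genes (rows, FPKM, axis from 0) in every library of cortex, thalamus and hypothalamus (columns), with ZT12.5 left of ZT0.5 in SLP HDAC4CA, SLP eGFP and WT eGFP mice. Points are libraries, and the black mark and bar give the mean ± SD of 4. Dbp and Ciart stood higher at ZT12.5 in all 9 pairs of means, Nfil3 lower, while the Hlf and Bhlhe40 points of both times overlapped.

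Dbp, the PAR bZIP activator best known as a clock output, differed most widely in thalamus. WT eGFP thalamus had 16.6, 20.3, 17.1 and 18.8 FPKM of Dbp at ZT12.5, against 8.0, 7.36, 7.28 and 7.2 FPKM at ZT0.5. SLP eGFP thalamus had 18.0, 18.3, 14.4 and 19.2 FPKM at ZT12.5, against 7.65, 7.33, 9.56 and 7.24 FPKM at ZT0.5. SLP HDAC4CA thalamus had 15.6, 19.7, 14.4 and 18.0 FPKM at ZT12.5, against 5.89, 5.26, 5.63 and 5.05 FPKM at ZT0.5. In all 3 kinds of mice every dusk library lay above every dawn library. The rise was 2.53-fold in WT eGFP (log2 difference 1.34 ± 0.09, SE, limma adjusted p = 4.8e-05), 2.24-fold in SLP eGFP (adjusted p = 0.00048) and 3.06-fold in SLP HDAC4CA mice (adjusted p = 2.7e-05).

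In cortex, Dbp stood at 11.0, 14.0, 10.7 and 12.6 FPKM in WT eGFP mice at ZT12.5, against 7.08, 6.36, 5.56 and 4.63 FPKM at ZT0.5. SLP eGFP cortex had 10.5, 14.2, 11.5 and 13.5 FPKM at ZT12.5, against 6.57, 7.6, 7.21 and 5.61 FPKM at ZT0.5. SLP HDAC4CA cortex had 10.1, 9.37, 7.43 and 9.15 FPKM at ZT12.5, against 3.86, 2.88, 3.04 and 4.11 FPKM at ZT0.5. No cortical dusk library overlapped the dawn libraries of its own group. Dbp rose 2.14-fold (log2 1.10 ± 0.12, limma adjusted p = 0.003), 1.91-fold (0.93 ± 0.11, adjusted p = 0.0051) and 2.64-fold (1.40 ± 0.13, adjusted p = 0.00088) in the order given.

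Hypothalamic Dbp also separated the times. WT eGFP hypothalamus had 10.2, 11.5, 10.1 and 11.9 FPKM at ZT12.5, against 7.93, 7.85, 6.0 and 6.9 FPKM at ZT0.5. SLP eGFP hypothalamus had 13.0, 12.0, 12.5 and 12.4 FPKM at ZT12.5, against 5.96, 6.75, 7.62 and 5.56 FPKM at ZT0.5. SLP HDAC4CA hypothalamus had 12.1, 14.3, 8.12 and 9.28 FPKM at ZT12.5, against 6.35, 4.29, 4.62 and 6.11 FPKM at ZT0.5. In none of the 3 did dusk and dawn overlap, and the lowest dusk library of SLP HDAC4CA mice came nearest to dawn. Dbp rose 1.51-fold in WT eGFP (log2 0.60 ± 0.09, limma adjusted p = 0.026) and 1.93-fold in SLP eGFP mice (0.95 ± 0.08, adjusted p = 0.0016). In SLP HDAC4CA mice the log2 difference of 1.08 ± 0.18 missed the threshold (adjusted p = 0.058). The WT call was lost in 6 of the 8 fits that left out 1 library (adjusted p 0.063 to 0.086), all but those without ZT12.5 replicate 3 or ZT0.5 replicate 1.

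Ciart, the repressor of CLOCK and BMAL1 whose window holds 3 E-boxes, followed the same direction. WT eGFP thalamus had 4.02, 3.83, 3.56 and 3.4 FPKM of Ciart at ZT12.5, against 1.87, 1.51, 1.62 and 1.46 FPKM at ZT0.5. SLP eGFP thalamus had 3.34, 3.97, 3.52 and 3.8 FPKM at ZT12.5, against 1.82, 2.31, 2.09 and 2.2 FPKM at ZT0.5. SLP HDAC4CA thalamus had 3.27, 4.66, 2.88 and 2.97 FPKM at ZT12.5, against 1.51, 1.82, 1.51 and 1.67 FPKM at ZT0.5. Dusk and dawn libraries were separate in each. Thalamic Ciart rose 2.32-fold (log2 1.22 ± 0.11, limma adjusted p = 0.00016), 1.75-fold (0.81 ± 0.09, adjusted p = 0.00092) and 2.03-fold (1.02 ± 0.14, adjusted p = 0.0013) in that order.

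Cortical Ciart had 2.57, 3.36, 3.22 and 3.51 FPKM in WT eGFP mice at ZT12.5, against 1.84, 0.809, 1.29 and 1.4 FPKM at ZT0.5. SLP eGFP cortex had 2.11, 3.26, 3.71 and 3.35 FPKM at ZT12.5, against 1.59, 1.85, 1.17 and 1.25 FPKM at ZT0.5. SLP HDAC4CA cortex had 3.02, 2.24, 2.42 and 2.48 FPKM at ZT12.5, against 0.818, 0.937, 0.902 and 0.732 FPKM at ZT0.5. The lowest dusk library of SLP eGFP cortex lay just above its dawn libraries, and the SLP HDAC4CA groups were far apart. The folds were 2.45 in WT eGFP (limma adjusted p = 0.012), 2.13 in SLP eGFP (adjusted p = 0.012) and 2.87 in SLP HDAC4CA cortex (log2 1.52 ± 0.11, adjusted p = 0.00029). In hypothalamus Ciart was called only in SLP eGFP mice, with 2.17, 2.53, 2.03 and 2.12 FPKM at ZT12.5, against 1.24, 1.2, 1.48 and 1.24 FPKM at ZT0.5. That is a 1.66-fold difference without overlap (limma adjusted p = 0.026), and the call was lost in 7 of the 8 fits without 1 library (adjusted p 0.057 to 0.1), all but the one without ZT0.5 replicate 3. WT eGFP hypothalamus averaged 2.17 ± 0.449 FPKM at ZT12.5 and 1.42 ± 0.193 at ZT0.5 (SD, n = 4 each, limma adjusted p = 0.18), and SLP HDAC4CA hypothalamus 2.09 ± 0.555 and 1.71 ± 0.21 (adjusted p = 0.45).

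Tef, the second PAR bZIP activator, differed less than Dbp and was called in thalamus alone. WT eGFP thalamus had 16.6, 16.5, 16.4 and 15.5 FPKM of Tef at ZT12.5, against 13.1, 11.2, 14.6 and 12.8 FPKM at ZT0.5. SLP eGFP thalamus had 15.5, 15.3, 16.4 and 16.4 FPKM at ZT12.5, against 13.6, 12.3, 15.1 and 12.8 FPKM at ZT0.5. SLP HDAC4CA thalamus had 12.6, 14.4, 14.0 and 15.0 FPKM at ZT12.5, against 11.1, 10.8, 10.1 and 9.99 FPKM at ZT0.5. The groups did not overlap, though a dawn library of SLP eGFP thalamus came within reach of the dusk ones. Tef rose 1.32-fold (log2 0.40 ± 0.06, limma adjusted p = 0.0018), 1.21-fold (0.28 ± 0.06, adjusted p = 0.011) and 1.34-fold (0.42 ± 0.05, adjusted p = 0.00058). Its log2 differences in the 6 comparisons of cortex and hypothalamus were 0.15 to 0.21, none of them called. Hlf, the third family member, had log2 differences of -0.14 to 0.20 over the 9 comparisons, with a smallest limma adjusted p of 0.13. In WT eGFP thalamus it averaged 28.6 ± 1.55 FPKM at ZT12.5 and 28.2 ± 4.09 FPKM at ZT0.5 (SD, n = 4 each), and the 95% interval of the log2 difference ran from -0.06 to 0.26.

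Nfil3, the D-box repressor, was lower at dusk. WT eGFP cortex had 1.27, 1.26, 1.36 and 1.18 FPKM of Nfil3 at ZT12.5, against 2.14, 2.48, 2.95 and 2.05 FPKM at ZT0.5. SLP eGFP cortex had 0.926, 1.28, 1.29 and 1.24 FPKM at ZT12.5, against 2.09, 1.47, 1.27 and 2.0 FPKM at ZT0.5. SLP HDAC4CA cortex had 1.41, 1.48, 1.08 and 1.5 FPKM at ZT12.5, against 2.37, 3.17, 4.14 and 2.4 FPKM at ZT0.5. The times overlapped in SLP eGFP cortex only. Nfil3 fell to 0.575 times the dawn level in WT eGFP (log2 -0.80 ± 0.13, limma adjusted p = 0.016) and to 0.494 times in SLP HDAC4CA cortex (-1.02 ± 0.17, adjusted p = 0.015). SLP eGFP cortex gave a log2 difference of -0.42 ± 0.16 (adjusted p = 0.15).

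Thalamic Nfil3 had 1.88, 1.86, 1.88 and 1.88 FPKM in WT eGFP mice at ZT12.5, against 2.3, 2.43, 3.28 and 2.47 FPKM at ZT0.5. SLP eGFP thalamus had 1.08, 1.89, 1.49 and 1.65 FPKM at ZT12.5, against 2.4, 3.28, 2.08 and 2.7 FPKM at ZT0.5. SLP HDAC4CA thalamus had 1.15, 1.39, 1.39 and 2.04 FPKM at ZT12.5, against 2.48, 2.64, 2.75 and 2.04 FPKM at ZT0.5. The highest dusk and lowest dawn library of SLP HDAC4CA thalamus were almost level, and the other groups were apart. Log2 differences were -0.38 ± 0.09 (limma adjusted p = 0.014), -0.71 ± 0.18 (adjusted p = 0.019) and -0.71 ± 0.14 (adjusted p = 0.0063). In hypothalamus Nfil3 fell in SLP eGFP mice, with 1.29, 1.53, 1.38 and 1.24 FPKM at ZT12.5, against 2.46, 2.41, 2.2 and 2.43 FPKM at ZT0.5. The groups were well apart (log2 -0.77 ± 0.09, limma adjusted p = 0.011), and the call was lost without ZT0.5 replicate 1 (adjusted p = 0.054) or 4 (adjusted p = 0.05). WT eGFP hypothalamus gave a log2 difference of -0.31 (adjusted p = 0.47) and SLP HDAC4CA hypothalamus one of -0.56 (adjusted p = 0.22).

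Because FPKM is per gene length, the level of the activator Dbp can be set against that of the repressor Nfil3 in each library, as a description of these groups. In cortex the ratio of Dbp to Nfil3 had medians of 9.72 at ZT12.5 and 2.41 at ZT0.5 in WT eGFP, 11.0 and 4.16 in SLP eGFP, and 6.63 and 1.27 in SLP HDAC4CA mice. The lowest ratio of all 84 libraries, 0.735, was in SLP HDAC4CA cortex at ZT0.5, so there Nfil3 stood above Dbp. Thalamic medians were 9.55 at ZT12.5 and 2.97 at ZT0.5 in WT eGFP, 10.7 and 2.94 in SLP eGFP, and 11.9 and 2.21 in SLP HDAC4CA mice. In hypothalamus they were 6.66 and 3.11, 9.55 and 2.61, and 6.09 and 2.26 in the same order. In each of the 9 pairs the lowest dusk ratio was above the highest dawn ratio.

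The DEC proteins BHLHE40 and BHLHE41 are close relatives, and their transcripts differed. WT eGFP thalamus had 6.74, 6.77, 6.74 and 6.83 FPKM of Bhlhe41 at ZT12.5, against 4.36, 4.35, 5.26 and 4.78 FPKM at ZT0.5. WT eGFP cortex had 3.46, 4.01, 3.35 and 3.82 FPKM at ZT12.5, against 2.89, 2.79, 2.66 and 2.53 FPKM at ZT0.5. Dusk lay above dawn in every library of both regions. Bhlhe41 rose 1.51-fold in WT eGFP thalamus (log2 0.59 ± 0.05, limma adjusted p = 0.00017) and 1.39-fold in WT eGFP cortex (0.48 ± 0.08, adjusted p = 0.017). It was also called higher in SLP eGFP thalamus (1.25-fold, adjusted p = 0.021) and in SLP HDAC4CA thalamus (1.46-fold, adjusted p = 0.0011) and cortex (1.35-fold, adjusted p = 0.018). In hypothalamus limma made no call, though dusk lay wholly above dawn. WT eGFP hypothalamus had 5.56 to 7.0 FPKM at ZT12.5 and 5.11 to 5.55 at ZT0.5, and SLP eGFP hypothalamus 6.18 to 6.76 and 5.15 to 5.91. SLP HDAC4CA hypothalamus had 6.09 to 7.08 and 5.46 to 5.75 FPKM (limma adjusted p = 0.09, voom adjusted p = 0.0085). The times overlapped in SLP eGFP cortex (3.22 to 3.8 and 2.97 to 3.31 FPKM). The WT cortex call was lost in 4 of the 8 fits without 1 library (ZT12.5 replicate 2 or 4, ZT0.5 replicate 1 or 3, adjusted p 0.053 to 0.06), the SLP HDAC4CA cortex call in 3 (ZT12.5 replicate 1, ZT0.5 replicate 2 or 4, adjusted p 0.052 to 0.054) and the SLP eGFP thalamus call in 2 (ZT0.5 replicate 3 or 4, adjusted p 0.05 and 0.053). Bhlhe40 had 9.87, 7.84, 9.79 and 9.69 FPKM in WT eGFP thalamus at ZT12.5, against 7.41, 7.17, 10.3 and 9.19 FPKM at ZT0.5. Its times overlapped in all 9 comparisons, with log2 differences of -0.25 to 0.20 and a smallest limma adjusted p of 0.15.

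Without the filter on low values, where many more genes are tested, 8 of the time calls missed the threshold with the same direction. These were Nfil3 (limma adjusted p = 0.059), Ciart (0.052) and Bhlhe41 (0.052) in WT eGFP cortex and Dbp in WT eGFP hypothalamus (0.11). In SLP mice they were Nfil3 (0.054) and Bhlhe41 (0.05) in eGFP thalamus, Ciart in eGFP hypothalamus (0.074) and Nfil3 in HDAC4CA cortex (0.054).

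**Figure D2:**
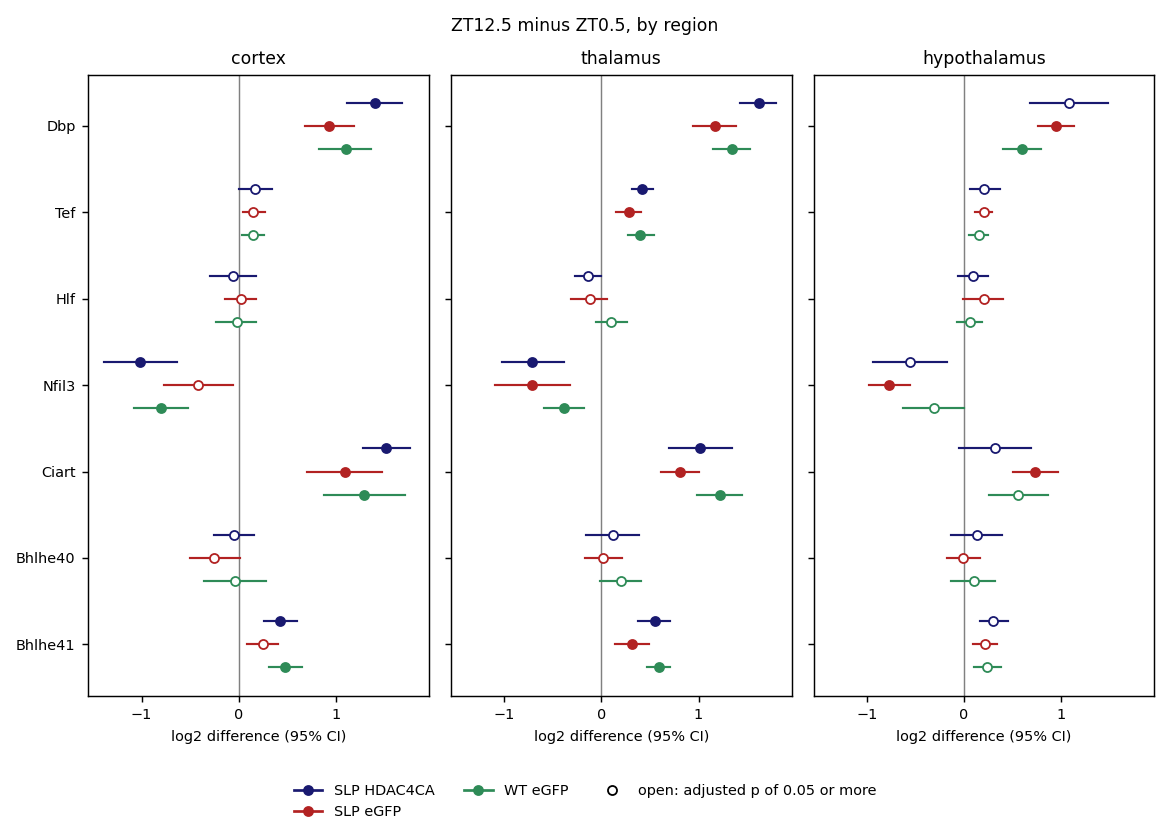
Log2 difference of ZT12.5 minus ZT0.5 for the 7 genes in cortex, thalamus and hypothalamus, in SLP HDAC4CA, SLP eGFP and WT eGFP mice, with unadjusted 95% confidence intervals from limma. Filled points passed an adjusted p of 0.05. Dbp (0.60 to 1.62) and Ciart (0.32 to 1.52) lie right of 0, Nfil3 (-1.02 to -0.31) left of it, and Hlf and Bhlhe40 around it.

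Other clock genes moved beside these. Of a core clock list of 17 genes, 3 were called in WT eGFP cortex (1 higher and 2 lower at ZT12.5), 8 in thalamus (6 higher and 2 lower) and 2 in hypothalamus, both higher. In WT eGFP thalamus the period genes, repressors of the clock, rose together, with log2 differences of 1.03 for Per1, 0.96 for Per2 and 0.92 for Per3, while Arntl fell by 0.63 (limma adjusted p = 0.0012). Arntl, which encodes BMAL1, was lower in 6 of the 9 time comparisons, and Per1 and Nr1d1 (the repressor REV-ERBα) were higher in 6. Of 9 other clock-controlled genes, 1 was called in WT eGFP cortex, 4 in thalamus and 0 in hypothalamus, where voom gave 167 genes in all and limma 39. Usp2, a deubiquitinase, was higher at ZT12.5 in 7 of the 9 comparisons, with log2 differences of 0.40 to 0.75 over all 9, and the tetraspanin gene Tspan4 in 6.

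Several values moved with time beside these results. Dbp shares 539 exon bases with Sphk2 (sphingosine kinase 2) on the opposite strand, and whether counting used the strand is not given in the sources used here. Sphk2 itself was called higher at ZT12.5 in 7 of 9 comparisons, with log2 differences of 0.24 to 0.75. Bhlhe41 shares 1280 exon bases with Gm43909 on the opposite strand, which was called higher in 5 of 9 (0.21 to 0.73). Tef shares 193 exon bases with Gm17597, which had a median of 6 reads a library. Ciart shares none with another gene of GENCODE M21, and Hlf and Nfil3 overlap no other gene there. In WT eGFP thalamus, 3 of 7 hypothalamus markers were lower at ZT12.5, summing to 29.1 to 60.3 FPKM, against 81.7 to 97.4 at ZT0.5. Summed endothelial markers there were 28.8 to 34.0 FPKM at ZT12.5 and 36.6 to 43.0 at ZT0.5 (2 of 5 lower and 1 higher), and blood markers 67.7 to 136 and 51.2 to 73.5 (2 of 4 higher). Astrocyte sums there were 204 to 217 and 225 to 276 FPKM (1 of 5 lower and 1 higher), and cortex marker sums 25.9 to 28.6 and 20.3 to 23.9 (2 of the 4 tested lower and 1 higher). In SLP eGFP thalamus, 4 of 5 oligodendrocyte markers were lower, summing to 434 to 542 FPKM at ZT12.5 and 649 to 709 at ZT0.5. Astrocyte sums in that tissue were 190 to 207 and 236 to 252 FPKM (3 of 5 lower), and endothelial sums 27.6 to 30.8 and 34.2 to 40.8 (2 of 5 lower and 1 higher). Cortex showed such shifts too. WT eGFP cortex had astrocyte sums of 244 to 274 FPKM at ZT12.5 and 286 to 317 at ZT0.5 (2 of 5 lower), and endothelial sums of 21.9 to 22.9 and 27.5 to 31.7 (2 of 5 lower). SLP eGFP cortex had astrocyte sums of 239 to 252 and 260 to 299 FPKM (1 of 5 lower), oligodendrocyte sums of 135 to 149 and 163 to 188 (1 of 5 lower) and endothelial sums of 19.6 to 23.1 and 23.6 to 27.2 (1 of 5 lower and 1 higher). In SLP HDAC4CA cortex 1 of 5 thalamus markers was lower (3.9 to 4.63 and 5.01 to 5.48 FPKM). No marker list named here had a gene at 0 in all libraries of these groups. Their part in the results was not tested, and in bulk tissue fewer cells of a type and less RNA per cell cannot be told apart. The hypothalamus marker sums overlapped in SLP eGFP thalamus, at 5.82 to 88.4 FPKM at ZT12.5 and 44.2 to 115 at ZT0.5.

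Across the 84 FPKM libraries, with log2 levels centred within each region, Dbp correlated with Ciart (Pearson r = 0.87), Tef (0.81) and Bhlhe41 (0.62), and inversely with Nfil3 (-0.68). These libraries share regions, times and constructs, so the values describe the design as well as the genes. Centred within each group instead, Dbp had r = 0.59 with Tef, 0.37 with Bhlhe41, 0.32 with Ciart and -0.05 with Nfil3, and Bhlhe40 had 0.64 with Bhlhe41. Of 12512 genes compared, the most like Dbp were Sphk2 (0.94), the period gene Per3 (0.90) and Cirbp (0.85), which encodes a cold-inducible RNA-binding protein. The closest to Ciart were Klf15 and Xdh (both 0.84) and Sphk2 (0.83). Tef lay closest to Per3 (0.84), Bcan (0.82) and Plekhm2 (0.81). Nfil3 lay closest to Ptges3 (0.77), Hsph1 and Tra2a (both 0.76), and Hlf to Rora (0.81), Hecw1 and Cyfip2 (both 0.80). Bhlhe40 was most like Add2 and Chrnb2 (both 0.81) and Gabbr1 (0.79), and Bhlhe41 most like B4galnt4 (0.85), Ap2a1 and Grina (both 0.80).

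Whether the time difference itself depended on region was tested in WT eGFP mice. It was smaller in hypothalamus than in thalamus for 3 of the 7 genes, where 12.2% of all genes tested were called and 5.36% were called in that direction. The difference of log2 differences, hypothalamus minus thalamus, was -0.73 ± 0.13 for Dbp (limma adjusted p = 0.0035), -0.64 ± 0.18 for Ciart (adjusted p = 0.027) and -0.34 ± 0.08 for Bhlhe41 (adjusted p = 0.013). Tef gave -0.24 ± 0.08 (adjusted p = 0.053). Without scaling between libraries only Dbp was called, Ciart stood at -0.58 (adjusted p = 0.086) and Bhlhe41 at -0.28 (adjusted p = 0.16), and without the filter on low values Ciart was not called (adjusted p = 0.061). The Ciart call was also lost in 5 of 16 fits without 1 library (adjusted p 0.051 to 0.055), those without ZT12.5 replicate 1 or ZT0.5 replicate 2 of hypothalamus, or ZT12.5 replicate 1 or 2 or ZT0.5 replicate 4 of thalamus. Beside these, 4 of 7 hypothalamus markers (median log2 0.81) and 2 of the 4 cortex markers tested (0.87) differed in the same test, and their part in the result was not tested. Cortex minus thalamus and cortex minus hypothalamus called none of the 7 (0.532% and 0.0472% of all genes, and 2362 and 2261 genes at an unadjusted p under 0.05).

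SLP and WT mice were compared next, as eGFP groups at the same time, which asks whether the Sik3 allele moved these genes. None of the 7 was called in any region at ZT12.5 or ZT0.5 (limma, 6 comparisons). Of all genes, 0 were called in 5 of the 6 and 5 genes (0.0299%) in thalamus at ZT0.5, while 737 to 1420 genes had an unadjusted p under 0.05 and voom called 0 to 49. Dbp had 13.0, 12.0, 12.5 and 12.4 FPKM in SLP eGFP hypothalamus at ZT12.5, against 10.2, 11.5, 10.1 and 11.9 FPKM in WT eGFP hypothalamus. These values almost touch, and the log2 difference of 0.21 ± 0.07 was not called (adjusted p = 0.57, 95% interval 0.06 to 0.36). In cortex the 95% interval for Dbp was -0.18 to 0.27 at ZT12.5 and -0.06 to 0.49 at ZT0.5, and in thalamus -0.24 to 0.18 and -0.09 to 0.32. The largest log2 differences were those of Nfil3 in cortex at ZT0.5, -0.47 ± 0.17 (adjusted p = 0.74), and Ciart in thalamus at ZT0.5, 0.39 ± 0.12 (adjusted p = 0.58).

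The interaction of genotype and time also called none of the 7 in any region, nor any other gene with limma (0% of those tested, 831 to 1131 at an unadjusted p under 0.05, 0 to 9 with voom). For Dbp, the SLP minus WT difference of the log2 time differences was -0.17 ± 0.18 in cortex, -0.15 ± 0.14 in thalamus and 0.35 ± 0.13 in hypothalamus, where its 95% interval ran from 0.08 to 0.62. A time call of Nfil3, Ciart or Bhlhe41 in eGFP mice of 1 genotype and not of the other is therefore not shown to be a difference between genotypes. Nor is such a difference excluded. On simulated data the genotype by time test in thalamus recovered only 28% of 1.5-fold changes and 86% of 2-fold changes. The simulation gave all genes the same spread and did not cover cortex or hypothalamus. It does not give the rate for Nfil3, Ciart or Bhlhe41. HDAC4CA and time in SLP mice gave no call either (0% of genes in each region, 809 to 1378 at an unadjusted p under 0.05, 1 with voom). There the HDAC4CA minus eGFP difference for Dbp was 0.48 ± 0.18 in cortex (95% interval 0.10 to 0.86, adjusted p = 0.62), 0.45 ± 0.14 in thalamus (adjusted p = 0.5) and 0.14 ± 0.21 in hypothalamus.

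HDAC4CA was compared with its fluorescent control in 3 settings, WT mice at ZT12.5 (mCherry) and SLP mice at ZT12.5 and ZT0.5 (eGFP). Dbp was lower with HDAC4CA in cortex in all 3, and Bhlhe40 higher in thalamus in all 3. In WT mice 2 of the 7 genes were called in cortex (4.35% of all genes), 2 in thalamus (6.8%) and 0 in hypothalamus (0.122%). In SLP mice at ZT12.5 the counts were 3 (10.3%), 2 (11.2%) and 0 (0.075%) in the same order of regions, and at ZT0.5 they were 4 (3.87%), 3 (8.68%) and 0 (0.0175%). In WT cortex both were lower (2.33% of all genes lower, 2.02% higher), and in WT thalamus 1 was higher and 1 lower (3.04% and 3.76%). In SLP cortex 1 was higher and 2 lower at ZT12.5 (6.2% and 4.15%), and all 4 were lower at ZT0.5 (1.68%, with 2.18% higher). In SLP thalamus both were higher at ZT12.5 (6.05%, with 5.14% lower), and 1 was higher and 2 lower at ZT0.5 (4.52% and 4.16%). In the 3 hypothalamus comparisons 1470 to 1793 genes had an unadjusted p under 0.05, and voom called 18 to 72 genes but none of the 7.

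**Figure D3:**
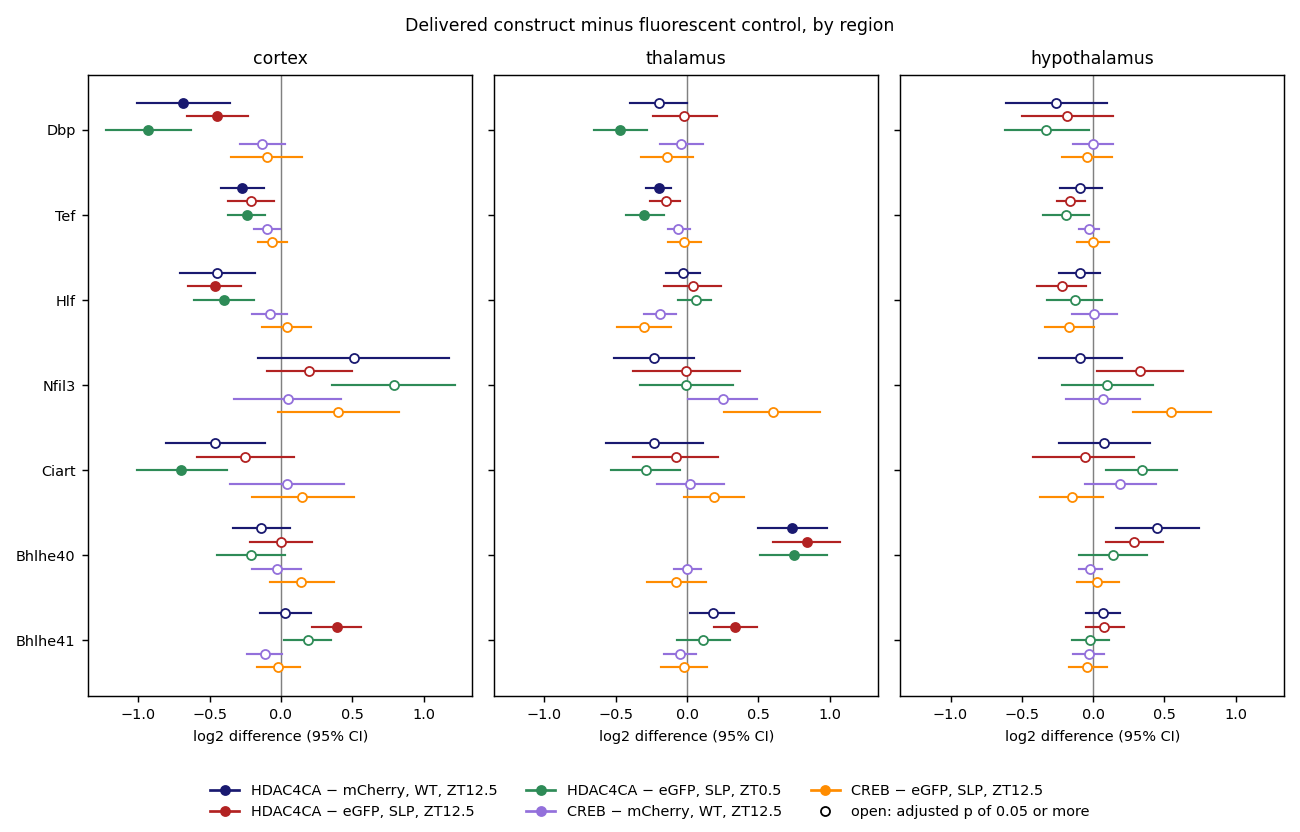
Log2 difference of each delivered construct minus its fluorescent control for the 7 genes in cortex, thalamus and hypothalamus, with unadjusted 95% confidence intervals from limma. Filled points passed an adjusted p of 0.05. Filled points left of 0 are Dbp, Tef, Hlf and Ciart with HDAC4CA, filled points right of 0 are Bhlhe40 and Bhlhe41 with HDAC4CA, and all CREB points are open.

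Cortical Dbp had 3.86, 2.88, 3.04 and 4.11 FPKM in SLP HDAC4CA mice at ZT0.5, against 6.57, 7.6, 7.21 and 5.61 FPKM in SLP eGFP mice. At ZT12.5 it had 10.1, 9.37, 7.43 and 9.15 FPKM in SLP HDAC4CA mice, against 10.5, 14.2, 11.5 and 13.5 FPKM in SLP eGFP mice. WT HDAC4CA cortex had 11.3, 9.93, 7.56 and 7.26 RPKM at ZT12.5, against 16.2, 14.2, 15.7 and 14.4 RPKM in WT mCherry cortex. No HDAC4CA library reached its control's range, though 1 pair at ZT12.5 in SLP mice was close. Dbp fell to 0.523 times the control (log2 -0.93 ± 0.14, limma adjusted p = 0.0074), 0.733 times (-0.45 ± 0.10, adjusted p = 0.015) and 0.622 times (-0.69 ± 0.15, adjusted p = 0.03) in that order. The WT call was lost in 6 of the 8 fits without 1 library (adjusted p 0.053 to 0.094), all but those without HDAC4CA replicate 1 or 4. It remained without the libraries of low ribosomal protein level, replicate 4 of both groups (log2 -0.61, adjusted p = 0.04). Without the filter on low values, the Dbp calls in WT cortex (adjusted p = 0.088) and in SLP cortex at ZT12.5 (0.055) were lost. In thalamus Dbp was called lower only at ZT0.5, with 5.89, 5.26, 5.63 and 5.05 FPKM in SLP HDAC4CA mice, against 7.65, 7.33, 9.56 and 7.24 FPKM in SLP eGFP mice. These were apart (log2 -0.47 ± 0.08, limma adjusted p = 0.0079), and thalamic Dbp at ZT12.5 gave -0.02 ± 0.10 in SLP and -0.20 ± 0.09 in WT mice (adjusted p = 0.94 and 0.23).

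The other PAR bZIP activators had lower values with HDAC4CA in cortex too, and Hlf was called in SLP mice at both times. Hlf had 16.6, 12.6, 11.7 and 14.8 FPKM in SLP HDAC4CA cortex at ZT12.5, against 17.3, 21.5, 18.9 and 19.4 FPKM in SLP eGFP cortex. At ZT0.5 it had 17.8, 14.4, 12.9 and 14.9 FPKM, against 19.7, 22.6, 17.0 and 20.5 FPKM in SLP eGFP cortex. The groups were apart at ZT12.5 and overlapped at ZT0.5. Hlf fell to 0.725 times the control at ZT12.5 (log2 -0.46 ± 0.08, limma adjusted p = 0.006) and to 0.757 times at ZT0.5 (-0.40 ± 0.10, adjusted p = 0.045). The ZT0.5 call was lost in 7 of 8 fits without 1 library, all but the one without HDAC4CA replicate 1 (adjusted p 0.056 to 0.11), and also without scaling between libraries (0.066) and without the filter (0.14). In WT cortex Hlf missed the threshold (-0.45 ± 0.12, adjusted p = 0.064) and passed it without HDAC4CA replicate 1 (-0.59, adjusted p = 0.0036) or without scaling between libraries (-0.52, adjusted p = 0.021).

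Tef was called lower with HDAC4CA in WT cortex and thalamus and in SLP cortex and thalamus at ZT0.5. WT HDAC4CA thalamus had 15.5, 17.4, 16.7 and 15.5 RPKM of Tef, against 18.5, 19.4, 20.1 and 19.0 RPKM in WT mCherry thalamus. SLP HDAC4CA thalamus at ZT0.5 had 11.1, 10.8, 10.1 and 9.99 FPKM, against 13.6, 12.3, 15.1 and 12.8 FPKM in SLP eGFP thalamus. Neither pair of groups overlapped. The falls were small, at log2 -0.20 ± 0.04 in WT (limma adjusted p = 0.017) and -0.30 ± 0.06 in SLP thalamus (adjusted p = 0.013). The WT thalamus call was lost without mCherry replicate 2, 3 or 4 (adjusted p 0.054 to 0.055). Cortical Tef gave -0.27 ± 0.07 in WT (adjusted p = 0.048) and -0.24 ± 0.06 in SLP mice at ZT0.5 (adjusted p = 0.046). The first was lost in 7 of 8 fits without 1 library, all but that without HDAC4CA replicate 1 (adjusted p 0.078 to 0.12), and the second in all 8 (0.06 to 0.12). The WT cortex call was also lost without scaling between libraries (log2 -0.35, adjusted p = 0.066), without the filter (0.11) and without the libraries of low ribosomal protein level (0.11). The SLP cortex call was lost without scaling (0.072) and without the filter (0.11). Over all 9 comparisons Tef gave log2 differences of -0.30 to -0.09. How often the groups of other genes had separate ranges was not counted, so the ranges that follow only describe Tef. Among the comparisons without a call, SLP thalamus at ZT12.5 had 12.6 to 15.0 FPKM with HDAC4CA and 15.3 to 16.4 with eGFP. SLP hypothalamus at ZT12.5 had 15.2 to 17.0 and 18.4 to 19.4 FPKM.

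Ciart, the repressor with 3 E-boxes, was called lower with HDAC4CA in 1 of the 9 comparisons. SLP HDAC4CA cortex at ZT0.5 had 0.818, 0.937, 0.902 and 0.732 FPKM of Ciart, against 1.59, 1.85, 1.17 and 1.25 FPKM in SLP eGFP cortex. The groups were apart (log2 -0.70 ± 0.14, limma adjusted p = 0.024), and the call was lost without HDAC4CA replicate 3 or 4 or eGFP replicate 1 or 2 (adjusted p 0.052 to 0.075) and without the filter (0.083). In WT cortex Ciart gave -0.46 ± 0.16 (adjusted p = 0.14), and without scaling between libraries -0.54 (adjusted p = 0.036). Nfil3 in the SLP cortex at ZT0.5 had 2.37, 3.17, 4.14 and 2.4 FPKM with HDAC4CA, against 2.09, 1.47, 1.27 and 2.0 FPKM with eGFP. These did not overlap, and the log2 difference of 0.79 ± 0.19 missed the threshold (adjusted p = 0.052), passing it without HDAC4CA replicate 1 (adjusted p = 0.04) and with voom (adjusted p = 0.0072). In WT cortex Nfil3 stood at 2.66 ± 1.17 RPKM with HDAC4CA and 1.89 ± 0.625 with mCherry (SD, n = 4 each, log2 0.51 ± 0.29, limma adjusted p = 0.38). With the replicate number as a block it passed (adjusted p = 0.039), and number 4 marks the library with low ribosomal protein level in both groups. With a term for library kind in place of the block, the adjusted p was 0.082.

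Bhlhe40 in thalamus rose with HDAC4CA by more than any other of the 7 genes. WT HDAC4CA thalamus had 16.0, 18.0, 22.1 and 22.2 RPKM of Bhlhe40, against 12.4, 12.3, 12.0 and 11.0 RPKM in WT mCherry thalamus. SLP HDAC4CA thalamus at ZT12.5 had 12.3, 13.8, 16.7 and 16.9 FPKM, against 8.7, 9.28, 6.89 and 8.96 FPKM in SLP eGFP thalamus. At ZT0.5 it had 11.9, 13.9, 16.9 and 12.6 FPKM with HDAC4CA, against 8.01, 8.5, 8.55 and 8.9 FPKM with eGFP. Every HDAC4CA library lay above every control library of its comparison. The rises were 1.67-fold (log2 0.74 ± 0.11, limma adjusted p = 0.0035), 1.79-fold (0.84 ± 0.11, adjusted p = 0.0013) and 1.68-fold (0.75 ± 0.10, adjusted p = 0.0023), and none of these calls was lost when a library was left out. In cortex Bhlhe40 gave log2 differences of -0.14, 0.00 and -0.21 in the same order. WT hypothalamus had 7.73, 10.6, 12.0 and 11.1 RPKM with HDAC4CA, against 7.72, 7.35, 7.69 and 7.84 RPKM with mCherry. HDAC4CA replicate 1 sat among the controls, the difference of 0.45 ± 0.13 was not called (adjusted p = 0.27), and it was called without that library (0.58, adjusted p = 0.0012).

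Bhlhe41 was called higher with HDAC4CA in SLP cortex and thalamus at ZT12.5. SLP HDAC4CA cortex had 5.1, 4.15, 4.84 and 4.47 FPKM, against 3.37, 3.8, 3.22 and 3.78 FPKM in SLP eGFP cortex. SLP HDAC4CA thalamus had 6.8, 7.64, 7.79 and 8.28 FPKM, against 6.67, 6.07, 5.59 and 6.2 FPKM in SLP eGFP thalamus. The groups were apart in both, narrowly in thalamus. Bhlhe41 rose 1.31-fold in cortex (log2 0.39 ± 0.08, limma adjusted p = 0.0088) and 1.27-fold in thalamus (0.34 ± 0.07, adjusted p = 0.01). Without scaling between libraries the thalamus call was lost (log2 0.31, adjusted p = 0.053).

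**Figure D4:**
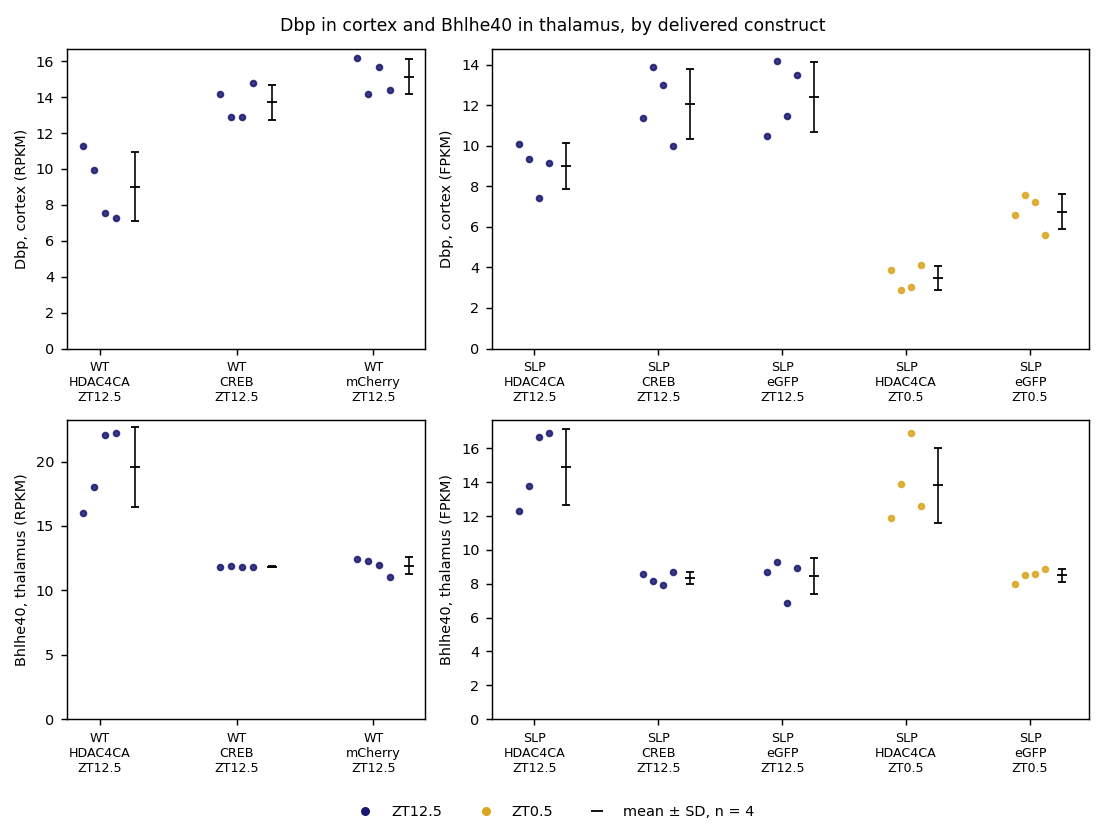
Level of Dbp in cortex (top) and Bhlhe40 in thalamus (bottom) in every library, by delivered construct, in WT mice (left, RPKM) and SLP mice (right, FPKM), axes from 0. Points are libraries, and the black mark and bar give the mean ± SD of 4. Dbp is lower with HDAC4CA than with the fluorescent control in all 3 settings and Bhlhe40 is higher, and no CREB group was called different from its control.

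Several values moved with HDAC4CA beside these genes. The antisense gene 0610040F04Rik, which shares 118 exon bases with Bhlhe40, was called higher with HDAC4CA in SLP thalamus at ZT12.5 (log2 0.65) and ZT0.5 (0.49). Gm43909, which overlaps Bhlhe41, was called higher in SLP thalamus at ZT12.5 (0.33), and Sphk2, which overlaps Dbp, was called lower in SLP cortex at ZT12.5 (log2 -0.30). Cortical Sphk2 had separate ranges in all 3 settings, without a call in the others. WT cortex had 4.49 to 5.88 RPKM with HDAC4CA and 6.51 to 7.05 with mCherry. SLP cortex had 4.42 to 5.21 FPKM with HDAC4CA and 5.55 to 6.85 with eGFP at ZT12.5. At ZT0.5 the ranges were 3.5 to 3.93 and 4.32 to 5.05 FPKM. Thalamic and hypothalamic Sphk2 overlapped in each setting. Whether reads of Sphk2 entered the Dbp values was not tested. In SLP thalamus at ZT12.5 all 8 choroid plexus markers were lower, summing to 8.06 to 14.3 FPKM with HDAC4CA and 570 to 1650 with eGFP, with no marker at 0 in all libraries of a group. The choroid plexus sums overlapped in the other 2 thalamus comparisons, at 6.75 to 1550 RPKM with HDAC4CA and 28.7 to 1760 with mCherry in WT mice, and at 9.29 to 1030 FPKM with HDAC4CA and 12.0 to 1280 with eGFP in SLP mice at ZT0.5. Cortex markers summed higher with HDAC4CA in all 3 thalamus comparisons, with 1 of the 4 tested called higher in each. Their sums were 29.4 to 37.0 RPKM with HDAC4CA and 24.8 to 28.3 with mCherry in WT mice, 32.4 to 44.7 FPKM with HDAC4CA and 22.6 to 30.7 with eGFP in SLP mice at ZT12.5, and 28.7 to 32.4 and 20.7 to 25.9 FPKM at ZT0.5. None of these pairs overlapped. In SLP cortex the cortex markers summed to 193 to 205 FPKM with HDAC4CA and 151 to 189 with eGFP at ZT12.5 (1 of 5 higher and 1 lower), and to 172 to 196 and 127 to 162 at ZT0.5 (1 of 5 higher). Blood markers summed to 29.1 to 44.1 FPKM with HDAC4CA and 53.3 to 85.1 with eGFP in SLP cortex at ZT0.5 (3 of 4 lower), and to 29.2 to 60.9 and 62.0 to 151 at ZT12.5 (none called). In WT cortex the blood sums overlapped (19.6 to 63.6 RPKM with HDAC4CA, 24.7 to 32.0 with mCherry). Oligodendrocyte sums in WT cortex were apart, at 180 to 203 RPKM with HDAC4CA and 212 to 297 with mCherry. Astrocyte sums in WT thalamus were apart too, at 265 to 300 and 312 to 318 RPKM. In SLP thalamus blood markers were lower at ZT12.5 (4 of 4, 36.7 to 82.3 and 82.3 to 166 FPKM) and ZT0.5 (2 of 4, 29.7 to 54.0 and 66.3 to 122), and 3 of 5 oligodendrocyte markers were lower at ZT0.5 (472 to 610 and 649 to 709). At ZT0.5 the astrocyte sums in SLP thalamus were 197 to 214 FPKM with HDAC4CA and 236 to 252 with eGFP (2 of 5 lower), the microglia sums 28.6 to 31.5 and 31.8 to 37.1 (1 of 5 lower), and in SLP cortex the oligodendrocyte sums 132 to 153 and 163 to 188 (1 of 5 lower). Suprachiasmatic nucleus markers in hypothalamus summed higher with HDAC4CA at ZT12.5. Their sums were 155 to 270 RPKM with HDAC4CA and 86.1 to 124 with mCherry in WT mice. SLP mice had 161 to 215 FPKM with HDAC4CA and 107 to 150 with eGFP. At ZT0.5 these sums overlapped, at 156 to 237 and 127 to 200 FPKM. The part of these markers in the results for the 7 genes was not tested.

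Of the core clock list, HDAC4CA moved 4 of 17 genes in SLP cortex at ZT12.5, where 10.3% of all genes were called. All 4 were lower (4.15% of all genes), namely Npas2 (log2 -0.44), Rora (-0.38), Rorb (-0.49) and Csnk1e (-0.29). At ZT0.5, where 3.87% of all genes were called and 1.68% were lower, 3 of the 16 tested were lower, namely Per3 (-0.48), Nr1d2 (-0.37) and Rorb (-0.36). In SLP thalamus the 2 of 17 called at ZT12.5 (11.2% of all genes) were higher, Per1 (0.48) and Fbxl21 (0.58), and Fbxl21 was also higher at ZT0.5 (0.52) and in WT thalamus (0.43). Among the other clock-controlled genes Usp2 fell in SLP cortex at ZT12.5 (-0.43) and ZT0.5 (-0.51) and in SLP thalamus at both times (-0.45 and -0.67). Arntl and Clock were called in none of the 9 comparisons with HDAC4CA.

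CREB was compared with mCherry in WT mice and with eGFP in SLP mice at ZT12.5, which asks whether delivering it moved these genes. In WT mice Creb1 averaged 6.53 RPKM with CREB and 3.46 with mCherry in cortex, and 12.1 and 3.84 in thalamus. WT hypothalamus had 5.02 ± 0.232 RPKM with CREB and 3.74 ± 0.148 with mCherry (SD, n = 4 each). In SLP mice Creb1 averaged 7.98 FPKM with CREB and 2.32 with eGFP in cortex, and 17.1 and 2.17 in thalamus. SLP hypothalamus had 6.44 and 2.92 FPKM. None of the 7 genes was called in any of the 6 comparisons (limma). Of all genes, 0.0373%, 3.04% and 0% were called in WT cortex, thalamus and hypothalamus, and 0.0736%, 4.53% and 0.00575% in SLP mice, while 801 to 3287 genes had an unadjusted p under 0.05. Voom called 1 of the 7 in WT thalamus, where it called 811 genes in all, and 2 in SLP thalamus, where it called 1124. Nfil3 in SLP thalamus had 2.03, 2.48, 2.35 and 2.91 FPKM with CREB, against 1.08, 1.89, 1.49 and 1.65 FPKM with eGFP. The groups were apart, and the log2 difference of 0.60 ± 0.15 missed the threshold (limma adjusted p = 0.054), passing it with voom (adjusted p = 0.031), without scaling (adjusted p = 0.039) and without eGFP replicate 2 (adjusted p = 0.047). In SLP hypothalamus Nfil3 had 1.56, 2.34, 1.96 and 2.42 FPKM with CREB, against 1.29, 1.53, 1.38 and 1.24 FPKM with eGFP (log2 0.55 ± 0.13, adjusted p = 0.86).

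Hlf, whose window holds a cAMP response element, had 20.1, 24.6, 23.4 and 22.0 FPKM in SLP CREB thalamus, against 28.4, 25.7, 22.7 and 29.6 FPKM in SLP eGFP thalamus. The groups overlapped through eGFP replicate 3. The log2 difference was -0.30 ± 0.09 (limma adjusted p = 0.076), and it was called without that library (-0.37, adjusted p = 0.037) and with voom (adjusted p = 0.023). WT CREB thalamus had 39.0, 33.5, 37.7 and 35.5 RPKM of Hlf, against 42.6, 43.4, 41.2 and 40.4 RPKM in WT mCherry thalamus. These were apart without a call (-0.19 ± 0.05, adjusted p = 0.068). Dbp gave log2 differences of -0.14 to 0.00 over the 6 comparisons, with 95% intervals of -0.19 to 0.11 in WT and -0.32 to 0.04 in SLP thalamus. Bhlhe40 in thalamus gave 0.00 ± 0.04 in WT and -0.08 ± 0.09 in SLP mice. None of the 17 core clock genes or the 9 other clock-controlled genes was called with CREB. Markers differed with CREB too. Astrocyte sums were 231 to 245 FPKM with CREB and 190 to 207 with eGFP in SLP thalamus, and 286 to 298 and 239 to 252 in SLP cortex. Oligodendrocyte sums in SLP thalamus were 571 to 593 and 434 to 542 FPKM. WT thalamus had astrocyte sums of 333 to 343 RPKM with CREB and 312 to 318 with mCherry, and cortex marker sums of 19.4 to 22.4 and 24.8 to 28.3. Astrocyte sums overlapped in WT cortex. Their part in the results was not tested.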

How the data were processed

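RNA of 120 libraries was measured. STAR 2.6.1a, featureCounts (its version is not given), CASAVA 1.9 and edgeR 3.28.1 are named with the build GRCm38 per the submitters' processing notes. Annotation release, strand setting and filters are not given in the sources used here. Each library has its own table of 49585 rows deposited by the authors, in RPKM for 36 libraries and in FPKM for the other 84, per the file headers. The 26 symbols turned into dates and 93 repeated symbols were left out. Values up to 20 reads became whole reads (94.3% to 95.7% within 0.1) with exon lengths of GENCODE M21, which gave depth and reads per gene. For Tef that length gave no whole reads, so its reads are approximate and not reported.

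Within each comparison, values were scaled by trimmed mean of M values (0.3 of log ratios and 0.05 of mean levels trimmed), moved to log2(value + 0.1) and tested with limma 3.58.1 in R 4.3.3 (trend, robust variances, Benjamini-Hochberg). That scale understates fold changes of low genes. Tested were genes that averaged at least 10 reads (or, with no exon length, a value of 1). The precision of a low gene is limited by its reads. Voom on recovered reads, with whole reads for nearly all low values, was an alternative, as were no scaling, pseudocount 1, no filter, a replicate block, each library left out and, in WT cortex, library kind. The fitting code was tested on simulated data with known changes first. For time in WT eGFP thalamus it recovered 80% of 1.5-fold and 99% of 2-fold changes. For genotype by time in thalamus it recovered 28% of 1.5-fold and 86% of 2-fold changes. False calls were 4.8% and 3.4% of all calls in that order. The other interactions were not simulated.

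The 7 genes and all lists were chosen with earlier results of these data known. Named were the 7 genes in every comparison, called list genes with the largest difference (up to 4), and the 3 named genes outside the 7 most like each by Pearson r. Usp2, Tspan4, Nr1d1 and the overlapping genes were described further after their values were seen. Same-numbered libraries were checked for pairing in 30 comparisons. Their deviations correlated above 0.1 in all 4 pairs only for HDAC4CA (0.13 to 0.65) and CREB (0.13 to 0.71) in WT cortex, where no label names a shared source. The pairs of replicate 4, all of low ribosomal protein level, gave 0.65 and 0.71, and the other pairs 0.13 to 0.24. This check did not cover libraries of different regions, which the test of time by region treated as independent.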

Additional observations from a re-analysis of the deposited data

Results flagged for a closer look

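Of 210 sets of 4 libraries (each gene in each group), 11 held a library far from the other 3, its gap to the nearest one taking more of the set's range than Dixon's 95% limit allows, and chance gives about 1 in 20. Low libraries were Dbp in WT CREB thalamus replicate 2 (13.6 RPKM, others 16.4 to 16.5), Tef in SLP HDAC4CA ZT0.5 cortex replicate 3 (14.4 FPKM, others 15.9 to 16.0), Hlf in WT eGFP ZT12.5 cortex replicate 3 (15.4 FPKM, others 19.9 to 20.6) and Hlf in SLP CREB hypothalamus replicate 1 (8.46 FPKM, others 10.8 to 11.2). Also low were Nfil3 in SLP eGFP ZT12.5 cortex replicate 1 (0.926 FPKM, others 1.24 to 1.29), Ciart in SLP HDAC4CA ZT0.5 hypothalamus replicate 2 (1.4 FPKM, others 1.79 to 1.84) and Bhlhe40 in WT eGFP ZT12.5 thalamus replicate 2 (7.84 FPKM, others 9.69 to 9.87). High libraries were Tef in WT mCherry cortex replicate 4 (27.1 RPKM, others 24.6 to 24.9), Tef in WT mCherry hypothalamus replicate 3 (20.8 RPKM, others 18.9 to 19.2), Nfil3 in WT eGFP ZT0.5 thalamus replicate 3 (3.28 FPKM, others 2.3 to 2.47) and Ciart in SLP eGFP ZT0.5 hypothalamus replicate 3 (1.48 FPKM, others 1.2 to 1.24).

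The time difference in WT eGFP mice differed between hypothalamus and thalamus, by an interaction test, for Dbp (log2 -0.73, limma adjusted p = 0.0035), Ciart (-0.64, adjusted p = 0.027) and Bhlhe41 (-0.34, adjusted p = 0.013).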

How the results depend on the processing

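No direction reversed among the 84 gene results tried under the alternatives, and pseudocount 1 changed no count. Tried were only results that were called or had a log2 difference of at least 0.3 either way. Smaller differences, which reverse most easily, were left out beforehand. Depth limits Ciart and Nfil3, and 4 libraries a group limit small differences. The number of the 7 genes called was 4, 1, 5, 2 and 4 with the filter and 1, 0, 3, 0 and 1 without it for time in WT eGFP cortex, WT eGFP hypothalamus and SLP eGFP thalamus, and for HDAC4CA in WT cortex and SLP cortex at ZT0.5; many more genes are then tested. Without scaling it was 1 (main 3) for time in hypothalamus minus thalamus, 1 (main 2) for HDAC4CA in SLP thalamus at ZT12.5, 2 (main 4) for HDAC4CA in SLP cortex at ZT0.5 and 1 (main 0) for CREB in SLP thalamus; the cause was not tested. Voom called 4 (main 2) for time in SLP eGFP cortex, 2 (main 0) for time in SLP HDAC4CA hypothalamus, 1 (main 0) for CREB in WT thalamus and 2 (main 0) for CREB in SLP thalamus. Over all genes it called 1878 (main 841), 247 (main 50), 811 (main 514) and 1124 (main 764) in that order. With the replicate block, the numbers were 1 (main 3) for time in SLP eGFP hypothalamus, 2 (main 4) for HDAC4CA in SLP cortex at ZT0.5 and 1 (main 0) for CREB in SLP thalamus, where same-numbered samples share only a number; elsewhere, but for Nfil3 with HDAC4CA in WT cortex, the block changed no call of the results tried. Without the libraries of low ribosomal protein level, HDAC4CA in WT cortex called 1 (main 2), with fewer samples. With 1 library left out, counts ran from 0 to 1 (time, WT eGFP hypothalamus), 1 to 3 (time, SLP eGFP hypothalamus), 0 to 3 (HDAC4CA, WT cortex), 1 to 3 (HDAC4CA, WT thalamus), 0 to 1 (HDAC4CA, WT hypothalamus), 1 to 4 (HDAC4CA, SLP cortex, ZT0.5) and 0 to 1 (CREB, WT thalamus and SLP thalamus). In the other comparisons the count stayed within 1.5 times. The number of all genes called moved further than that in 15 of 39 comparisons without scaling and in 32 without the filter. It did so in 25 with voom and in 16 with the replicate block, so such shifts are not particular to the 7 genes.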

Other observations

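Same-numbered libraries of different regions were set side by side, over 40 pairs in 10 kinds of mice and times, although no label says that they share a mouse. The deviations of Dbp from its group means (log2) correlated with r = 0.61 between thalamus and hypothalamus, 0.59 between cortex and hypothalamus and 0.37 between cortex and thalamus. For Hlf the same values were 0.00, 0.21 and -0.03, and for Bhlhe41 -0.07, 0.01 and -0.10. These are descriptions with no test, and pairs from 1 group share its mean.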
